A study of Mus musculus with 2 samples.

Results

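The axon guidance ligands and receptors were taken by gene symbol from the 27998 genes of the tables, as the semaphorins Sema3 to Sema7, plexins, neuropilins, Eph receptors, ephrins, Robo receptors, Slits, netrins, Unc5 receptors and Dcc. The rule found 70 entries with 68 symbols, because Ntn5 was listed under 3 identifiers. They were followed through single cells of newborn (P0) C57BL/6 telencephalic tissue, which the study describes as cerebral cortex freed with papain and loaded on a 10x Chromium chip. One library, labelled WT, came from control tissue, and the other, labelled STINGf/f;Nestin-Cre (cKO), from tissue in which a Cre driven by the Nestin promoter acts on a floxed STING gene. The study's text describes its controls as STING fl/fl where the label says WT. Strain, age and tissue were shared by both groups. Nestin-Cre acts in the neural lineage, to which endothelial cells and microglia do not belong. There was 1 library per group, so no test of genotype was possible, no p-value is given, and every 95% interval covers counting error only.

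Axon guidance cues are secreted or membrane-bound proteins that attract or repel a growth cone, the moving tip of an axon, through receptors on its surface. Semaphorins signal through plexins, with neuropilins as co-receptors for most of class 3. Ephrins bind Eph receptors on contact and both partners can signal, Slits repel through Robo receptors, and netrins attract through Dcc or repel with Unc5. The same families guide migrating neurons and interneurons in the newborn telencephalon and growing vessels in the brain.

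The WT library held 10715 barcodes and the cKO library 9198, of which 6496 and 5883 cells with a median of 6512 and 7495 UMIs (unique molecular identifiers, counts of captured transcripts) were kept. Tmem173, the gene for STING, was counted 121 times in the WT cells and 18 times in those of the cKO library, and 44 and 9 of these UMIs fell in endothelial-like cells and 21 and 3 in microglia-like cells. As levels these were 26.7 and 9.79 UMIs scaled to 1000000 per class in endothelial-like cells and 33.1 and 7.14 in microglia-like cells, so Tmem173 was also lower in classes outside that lineage. Radial glia/astrocyte-like cells had 9 and 1, cycling progenitor-like cells 5 and 0 and intermediate progenitor-like cells 3 and 0. In every projection neuron-like and interneuron-like class it had 0 UMIs in both libraries, so the label could not be checked there. Xist was at 10 UMIs in the WT library and at 69519 in the other, and 4 genes of the Y chromosome summed to 9512 and 6, so sex and genotype changed together and cannot be told apart. The libraries shared 19 barcode sequences. Cells fell into 39 clusters, found without the guidance genes, and 32 of them were named by marker genes as 16 classes. These included 406 and 296 striatal-type neuron-like cells and 731 and 368 olfactory bulb-type neuroblast-like cells, types found outside the cerebral cortex. The marker list of each class had no gene at 0 in its own class. The summed level of a list was lower in cKO MGE interneuron-like cells (12528 and 5808 UMIs scaled to 1000000 per class), OPC-like cells (6471 and 4335) and ependymal-like cells (3983 and 1659), and the part of this in the values of those classes was not tested.

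Of the 70 entries, 63 reached 50 UMIs over both libraries, 6 had 1 to 49 (Plxnb3, Epha1, Sema3g, Robo3 and a pair of the Ntn5 entries) and the remaining Ntn5 entry had none. Together they made up 0.220% of UMIs in WT (95% interval 0.219 to 0.221) and 0.205% in cKO (0.204 to 0.206). The EphA receptors held the most, with 27646 and 26096 UMIs, followed by the plexins with 18924 and 15769. The netrins, with 844 and 448, and Dcc, with 451 and 290, held the least. Levels below are given on that scale, counts per 1000000 UMIs of a class (CPM). These 3′ counts do not scale with transcript length, so levels of different genes are compared with that limit.

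The order of levels is given among the 16 named classes, and clusters without a name were left out of it. Summed over all members, newborn projection neuron-like cells had the most guidance transcripts of these, with 4077 CPM in WT and 3219 in cKO. Microglia-like cells had the fewest, with 764 and 459, and cycling progenitor-like cells came next with 1110 and 1023. Of 60 members with at least 50 UMIs in each library, 37 (61.7%) had their highest level in the same broad group of cells (joined classes, such as all projection neuron-like cells) in both libraries, beside 61.1% of 12905 genes. Among these joined groups, interneuron-like cells were highest for Sema3e, Efnb3, Efna5 and Slit1 in both libraries, a 6.67% share beside 3.06% of all genes. Among single classes, Efnb3 was instead highest in layer 5-like cells in WT and layer 6-like cells in cKO, and Sema3e in WT ependymal-like cells. In cKO the highest class of Sema3e, MGE interneuron-like, held 10 UMIs (4.26 CPM), beside 3.36 CPM in layer 5-like cells. Groups were ranked by level without regard to intervals. For projection neuron-like cells (Plxna2, Sema3c, Plxna4, Plxna1 and Slit3) the share was 8.33%, beside 4.04% of all genes. No member was highest in progenitor-like cells in both libraries, where 6.82% of all genes were. The other groups took between 2 and 6 members each, and 23 members changed group between libraries. The Cajal-Retzius, radial glia/astrocyte/ependymal and vascular groups took 10.0% each, beside 10.1%, 10.1% and 9.96% of all genes. OPC took 6.67% beside 6.89%, striatal-type and olfactory bulb-type cells 6.67% beside 3.01%, and immune cells 3.33% beside 7.21%.

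**Figure D1:**
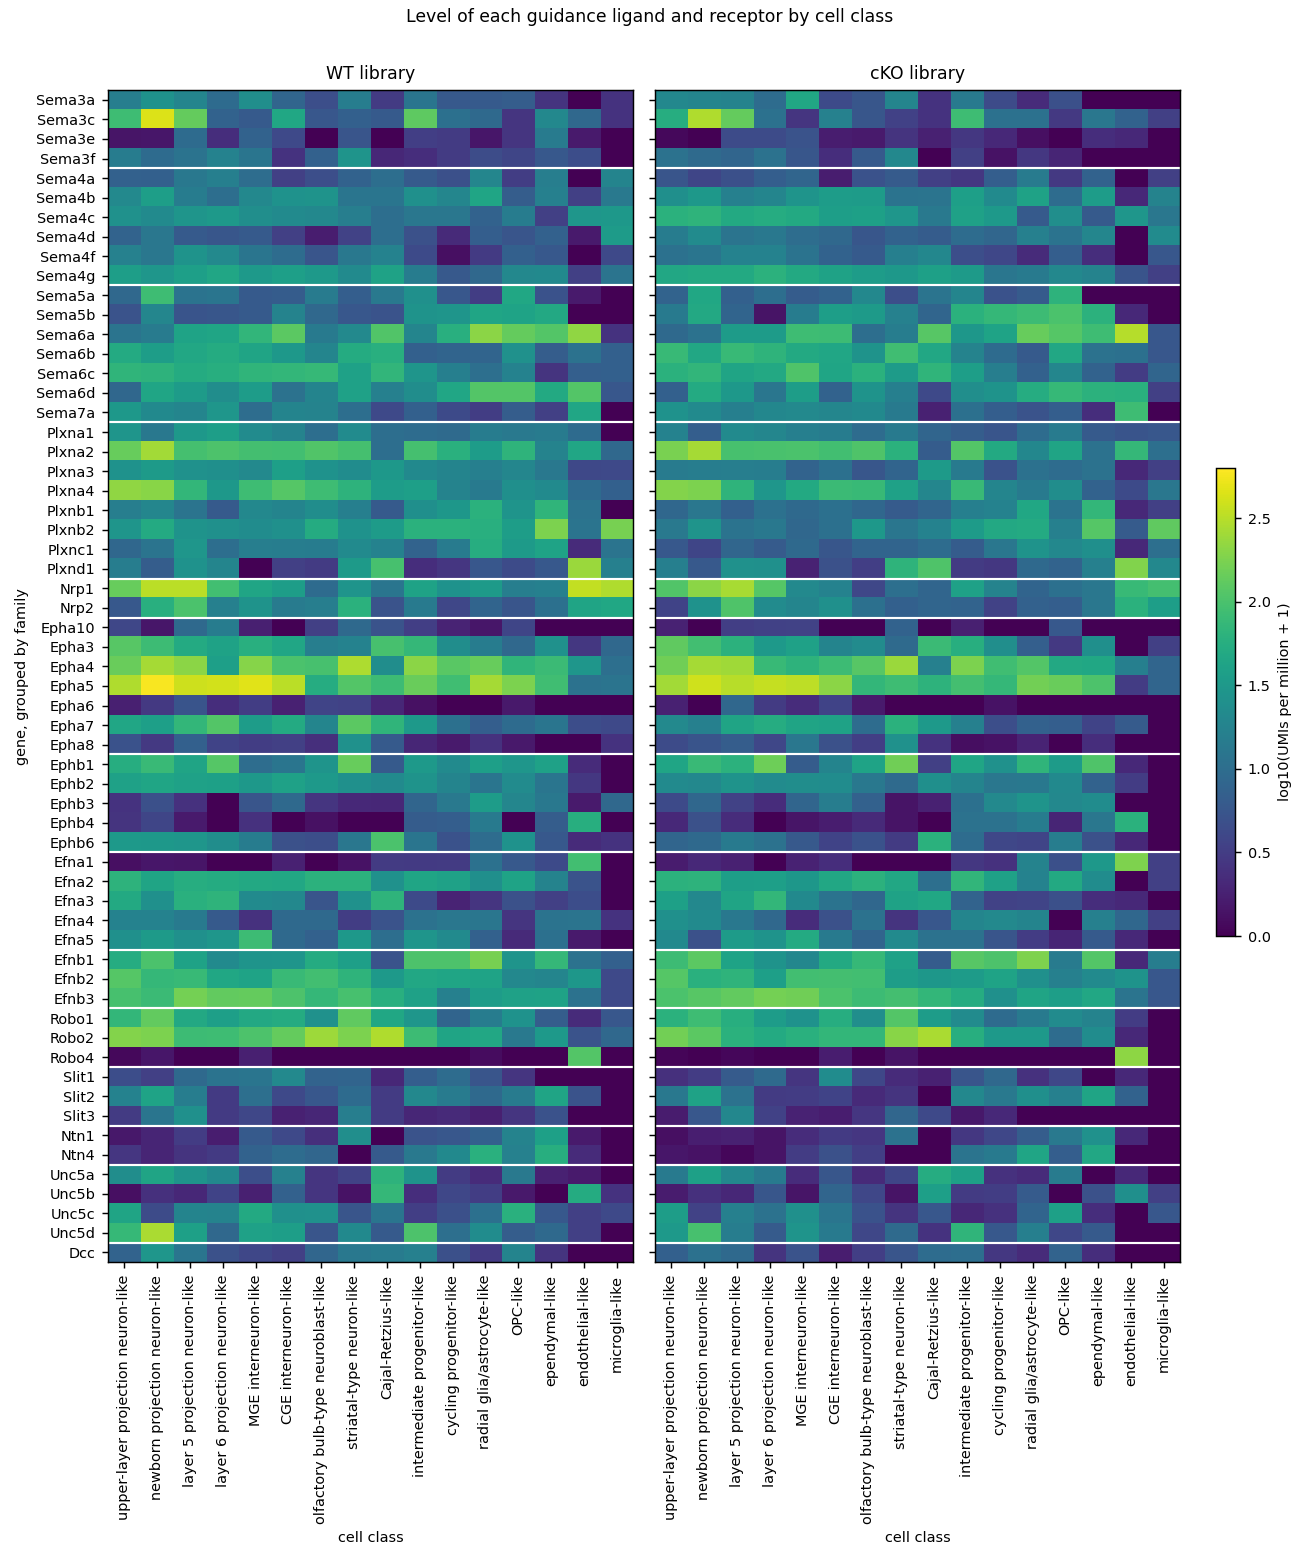
Levels of the 60 guidance genes with at least 50 UMIs in each library (rows, grouped by family) in each named class of cells (columns) of the WT and the cKO library, colored by the log10 of CPM plus 1, from dark for low to yellow for high. Sema3c and Unc5d are brightest in newborn projection neuron-like cells, and Robo4 and Efna1 in endothelial-like cells.

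By the rule used here, 4 members were highest in 1 named class, with a level at least 3 times that of any other named class in both libraries. The share of all genes that met this rule was not computed, so the count is a description only. The rule did not cover the 7 clusters without a name. Robo4, an endothelial Robo receptor, stood at 112 CPM (95% interval 96.8 to 129.8) in WT endothelial-like cells and 209 (95% interval 180.4 to 241) in cKO. Its highest level in another named class was 0.741 in WT and 0.661 in cKO. The WT microglia-like cells had 0 Robo4 UMIs, which allows up to 4.73 CPM. Efna1, an ephrin-A of vessels and epithelia, reached 88.1 (95% interval 74.3 to 104) in WT endothelial-like cells and 178 (95% interval 152 to 208) in cKO. The next class was radial glia/astrocyte-like in WT at 10.1 and ependymal-like in cKO at 30.1. Ephb4, the venous receptor for ephrin-B2, reached 55.3 (95% interval 44.5 to 67.9) and 60.9 (95% interval 46.0 to 79.1) in endothelial-like cells, and the radial glia/astrocyte-like cells came next at 13.1 and 13.9. Ephb6, an Eph receptor without kinase activity, reached 102 (95% interval 82.5 to 124) in WT Cajal-Retzius-like cells and 59.9 (95% interval 47.2 to 75.0) in cKO, with at most 31.9 and 14.6 in another named class. An unnamed cluster of 67 WT and 16 cKO cells, led by the pericyte genes Rgs5 and Vtn but with the endothelial genes Cldn5 and Kdr also among its 10 leading genes, also held the first 3. There Robo4 stood at 111 (95% interval 97.2 to 126) in WT and 153 (95% interval 122 to 190.3) in cKO, Efna1 at 66.5 (95% interval 55.9 to 78.5) in WT and 106 (95% interval 80.0 to 137) in cKO and Ephb4 at 56.9 (95% interval 47.2 to 68.1) in WT and 51.0 (95% interval 33.6 to 74.3) in cKO. Of all Robo4 UMIs, 423 in WT and 278 in cKO, the endothelial-like cells held 185 and 192 and this cluster 232 and 81. Robo4 and Efna1 were higher in the cKO endothelial-like cells than in WT, with intervals that did not overlap, whereas the intervals of Ephb4 overlapped. On the log2 scale of cKO over WT, with the median over all genes subtracted, Robo4 over all kept cells lay the other way at -0.34 (95% interval -0.56 to -0.11), and Efna1 stood at 0.16 (95% interval -0.06 to 0.38).

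**Figure D2:**
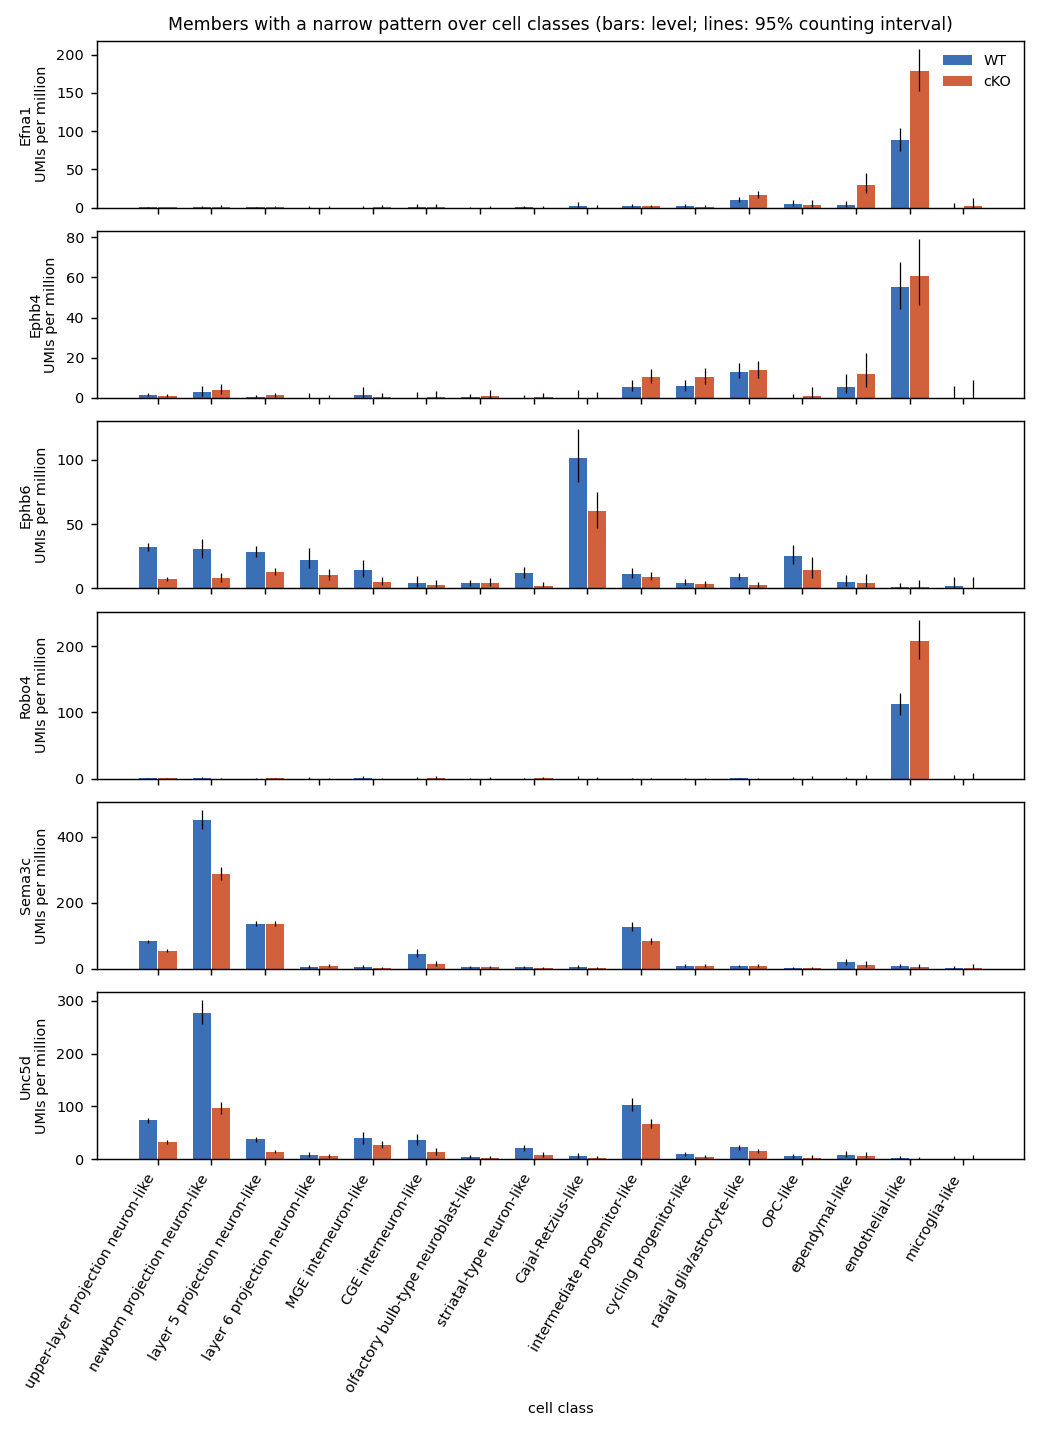
CPM of Efna1, Ephb4, Ephb6, Robo4, Sema3c and Unc5d in each named class, with 1 bar per library and lines for 95% counting intervals. Endothelial-like bars of Efna1, Ephb4 and Robo4, Cajal-Retzius-like bars of Ephb6 and newborn projection neuron-like bars of Sema3c and Unc5d lie above those of all other named classes.

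The promoters of these 4 genes are shown because each gene stood out in 1 named class. Each is the RefSeq sequence of 250 bases before and 50 after a listed start on GRCm38.p6, the one nearest to the annotated gene start where several are listed. Capitals mark the ETS-type core CCGGAA, a second form of that core with the letters CAGGAA, the E-box with the letters CAGCTG and a TATA box with the letters TATAAA, all searched on both strands.
Efna1, chr3:89280902-89281201 (- strand): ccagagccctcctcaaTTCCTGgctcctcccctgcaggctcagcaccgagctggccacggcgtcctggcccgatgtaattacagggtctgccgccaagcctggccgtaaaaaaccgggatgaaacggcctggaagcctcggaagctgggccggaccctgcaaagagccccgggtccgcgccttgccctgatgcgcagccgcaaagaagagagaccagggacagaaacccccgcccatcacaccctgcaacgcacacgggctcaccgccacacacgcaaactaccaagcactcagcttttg
Ephb4, chr5:137349859-137350158 (+ strand): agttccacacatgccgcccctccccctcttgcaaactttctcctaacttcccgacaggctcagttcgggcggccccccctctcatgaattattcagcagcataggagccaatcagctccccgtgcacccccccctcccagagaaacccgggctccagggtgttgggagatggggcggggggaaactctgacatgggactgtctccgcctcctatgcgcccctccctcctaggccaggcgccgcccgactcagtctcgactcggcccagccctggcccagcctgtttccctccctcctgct
Ephb6, chr6:41605261-41605560 (+ strand): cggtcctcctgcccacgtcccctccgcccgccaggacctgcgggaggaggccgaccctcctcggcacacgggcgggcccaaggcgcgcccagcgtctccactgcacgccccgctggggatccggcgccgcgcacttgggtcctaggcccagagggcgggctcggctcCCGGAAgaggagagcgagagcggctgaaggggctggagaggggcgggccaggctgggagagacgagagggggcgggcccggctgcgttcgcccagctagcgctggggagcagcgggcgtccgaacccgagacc
Robo4, chr9:37401722-37402021 (+ strand): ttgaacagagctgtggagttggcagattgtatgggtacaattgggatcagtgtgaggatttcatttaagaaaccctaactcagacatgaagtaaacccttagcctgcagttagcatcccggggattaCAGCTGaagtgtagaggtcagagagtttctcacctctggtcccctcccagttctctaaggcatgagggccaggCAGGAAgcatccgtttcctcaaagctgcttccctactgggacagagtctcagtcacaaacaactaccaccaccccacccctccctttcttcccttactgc
Efna1 and Robo4 held 1 CAGGAA core each, Robo4 also held 1 CAGCTG, Ephb6 held 1 CCGGAA, and none of the motifs was in the window of Ephb4. Among all 32851 RefSeq promoters, CAGGAA was found in 30.6%, CAGCTG in 16.3%, CCGGAA in 14.9% and TATAAA in 13.6%. Among 74 promoters of 58 members with one listed, the shares were 21.6%, 16.2%, 9.46% and 2.70%. A match is a description of the letters and not a binding site. Efna1 covers 89271733 to 89281142 of chromosome 3, and Ephb4 covers 137350109 to 137378669 of chromosome 5. Ephb6 covers 41605482 to 41620509 of chromosome 6, and Robo4 covers 37401897 to 37415115 of chromosome 9 (GENCODE M21, GRCm38).

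Among the class 3 semaphorins, which are secreted, Sema3c was the most abundant. It reached 452 CPM (95% interval 424 to 482) in WT newborn projection neuron-like cells and 289 (95% interval 269 to 309.6) in cKO, against 137 in WT and 137 in cKO in layer 5-like cells, the next class. Microglia-like cells, which should lack Sema3c, had 1.58 in WT and 2.38 in cKO. Both values lie under 3 counts in that class, too few for a measure of free RNA. Sema3a, the classical growth cone-collapsing semaphorin, was highest in WT newborn projection neuron-like cells at 25.5 and in cKO MGE interneuron-like cells at 45.1. Sema3f, which binds neuropilin-2, was highest in striatal-type neuron-like cells of both libraries, with 27.5 in WT and 19.3 in cKO. The WT intervals of Sema3a and Sema3f in their highest classes overlapped those of the next class.

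Class 4 and the later classes are bound to the membrane. Sema4c, a Plexin-B2 ligand, was highest in WT in layer 6-like cells at 30.9 and in cKO in newborn projection neuron-like cells at 64.7. Sema4b was highest in radial glia/astrocyte-like cells, with 42.8 in WT and 40.5 in cKO, and Sema4g in layer 6-like cells, with 44.7 in WT and 61.6 in cKO, each with an interval that overlapped that of the next class. Sema6a, a ligand of Plexin-A2 and Plexin-A4, was highest in endothelial-like cells, with 213 in WT and 309 in cKO, and its WT interval overlapped that of radial glia/astrocyte-like cells at 203. Sema6c was highest in olfactory bulb-type neuroblast-like cells in WT at 74.5 and in MGE interneuron-like cells in cKO at 107. The intervals of the highest pair of classes overlapped for Sema4c in both libraries and for Sema6c in WT. Sema6b was highest in WT in Cajal-Retzius-like cells at 58.0 (95% interval 43.8 to 75.4), an interval that overlapped that of the next class, and in cKO in striatal-type neuron-like cells at 87.2, which overlapped likewise.

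The receptors of the semaphorins were spread over neuronal, glial and vascular classes. Plxna2 was highest in newborn projection neuron-like cells of both libraries, with 259 in WT and 262 in cKO, and Plxna4 in upper-layer-like cells, with 217 in WT and 189.7 in cKO, intervals that overlapped those of newborn projection neuron-like cells. Plxnb2, a receptor of class 4 semaphorins, was high in ependymal-like cells (177 in WT and 115 in cKO) and in microglia-like cells (169 in WT and 131 in cKO). The Plxnb2 intervals of those classes overlapped in both libraries. Among the named classes, the co-receptor Nrp1, which also binds VEGF, was highest in WT endothelial-like cells at 352 (95% interval 324 to 382), followed by newborn projection neuron-like cells at 326 (95% interval 302 to 352), with overlapping intervals. In cKO it was highest in layer 5-like cells at 271, while endothelial-like cells had 76.2 (95% interval 59.4 to 96.2). An unnamed cluster led by Igfbpl1, with few UMIs per cell, stood above these, at 631 (95% interval 505 to 779.8) in WT and 502 (95% interval 433 to 579) in cKO. Nrp2 was highest in layer 5-like cells of both libraries, with 100.2 in WT and 107 in cKO.

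Epha5 was the most abundant EphA receptor and reached 592 in WT and 394 in cKO in newborn projection neuron-like cells, with MGE interneuron-like cells next in WT at 468 and an overlap with layer 6-like cells in cKO. Epha4, which binds both ephrin classes, was highest in WT striatal-type neuron-like cells at 281 and in cKO newborn projection neuron-like cells at 262. Its intervals in the highest pair of classes overlapped in both libraries. Epha3 was highest in upper-layer-like cells, with 116 in WT and 129 in cKO. Ephb1, the most abundant EphB receptor, was highest in striatal-type neuron-like cells, with 140.0 in WT and 156 in cKO. The intervals of the highest pair of classes overlapped for Epha3 in WT and for Ephb1 in both libraries. Ephb2 had 39.5 in WT and 26.5 in cKO in layer 5-like cells and 43.0 in WT and 19.2 in cKO in newborn projection neuron-like cells.

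The ephrins were led by the B class. Efnb3 reached 165 in WT and 134 in cKO in layer 5-like cells, Efnb2 115 in WT and 114 in cKO in upper-layer-like cells and Efnb1 167 in WT and 178 in cKO in radial glia/astrocyte-like cells. Efnb2 in endothelial-like cells, where it is known as an arterial gene, stood at 29.2 in WT and 26.1 in cKO. Among the A class, Efna2 had 63.6 in WT and 62.4 in cKO in upper-layer-like cells, Efna3 65.1 in WT and 69.9 in cKO in layer 6-like cells and Efna5 83.0 in WT and 50.2 in cKO in MGE interneuron-like cells. Of these 6 ephrins, Efnb1 alone had its highest level in a glial class in both libraries.

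Robo2 was the most abundant Slit receptor and among the named classes was highest in Cajal-Retzius-like cells, with 289 in WT and 277 in cKO, and its WT interval there overlapped that of olfactory bulb-type neuroblast-like cells at 244. An unnamed cluster led by Igfbpl1, with few UMIs per cell, had 631 (95% interval 505 to 779.8) in WT and 327 (95% interval 272 to 391) in cKO. It stood above them in WT, and in cKO its interval overlapped that of Cajal-Retzius-like cells. Robo1 had 129 in WT and 111 in cKO in striatal-type neuron-like cells. The Slits themselves were low. Among the named classes, Slit2 was highest in ependymal-like cells (42.1 in WT and 41.9 in cKO), Slit3 in layer 5-like cells (24.7 in WT and 18.9 in cKO) and Slit1 in CGE interneuron-like cells in both libraries (19.95 in WT and 21.8 in cKO). The Slit2 intervals overlapped those of the next class in both libraries and the Slit1 interval did in WT.

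Among the netrins and their receptors, Unc5d, a marker of newborn neurons on their way to the upper layers, stood apart. It reached 278 (95% interval 256 to 301) in WT newborn projection neuron-like cells and 96.5 (95% interval 85.3 to 109) in cKO. Intermediate progenitor-like cells came next, with 103 in WT and 66.9 in cKO. Unc5c was highest in OPC-like cells (oligodendrocyte precursors) at 59.3 in WT and 37.9 in cKO, and Unc5a in Cajal-Retzius-like cells at 63.2 in WT and 53.6 in cKO. Ntn1, the founding netrin, was highest in ependymal-like cells at 38.0 in WT and 24.9 in cKO, and Ntn4, a basement membrane netrin, had 58.9 in WT and 42.9 in cKO in radial glia/astrocyte-like cells. The Ntn5 entry with the most UMIs (4 and 7 among the kept cells) had 3.11 in WT and 5.52 in cKO in Cajal-Retzius-like cells. Dcc was highest in newborn projection neuron-like cells of both libraries, with 28.4 in WT and 10.1 in cKO, and these intervals overlapped those of the next class, as did those of Unc5c, Unc5a and Ntn1 in both libraries.

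The libraries were then compared within classes. For each gene with at least 50 UMIs over both libraries in a class, its cKO level was divided by its WT level on the log2 scale, and the median over all genes of the class, which lay between -0.25 and -0.00, was subtracted. A gene was counted as past 1.5-fold when this difference was at least 0.585 in size and its 95% interval left out 0. With 1 library per group the counts describe these libraries and not the genotypes. All classes come from the same pair of libraries, so their values are set side by side and are not independent of each other.

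In all kept cells, 6 of 63 members were higher in cKO and 13 were lower, 9.52% and 20.6% of those measured, beside 18.0% and 24.1% of all genes. The members' median was 0.06. The mix of cells differed between the libraries. OPC-like cells took a smaller share of the kept cKO cells (2.60%) than of the kept WT cells (4.79%). So did endothelial-like cells (0.93% against 1.69%), whereas interneuron-like cells took a larger one (11.4% against 7.19%). Any value over all kept cells can thus reflect cell numbers as well as levels within a class. The higher members included the membrane-bound semaphorins Sema4d at 1.34 (95% interval 1.14 to 1.54), Sema5b at 1.33 (95% interval 1.195 to 1.46) and Sema4c at 1.28 (95% interval 1.18 to 1.38), followed by Sema6b at 0.95 and Sema4g at 0.80. The lowest were the receptors Epha2 at -1.40 (95% interval -2.08 to -0.76), Ephb6 at -0.98 (95% interval -1.13 to -0.82), Plxnc1 at -0.88 and Epha10 at -0.82 and the class 3 semaphorin Sema3b at -0.83. The remaining lower members were the receptors Unc5d at -0.67, Plxnb2 at -0.66, Unc5b at -0.65 and Plxna3 at -0.62. With them were the ligands Ntn4 at -0.66, Ntn1 at -0.65, Sema3e at -0.59 and Sema6d, a membrane-bound semaphorin, at -0.59. Epha2 rested on 86 and 27 UMIs and turned to 0.56 when clusters were weighted alike in both libraries, and Sema3b rested on 58 and 27 UMIs. Under other alternatives Epha2 reached -0.49, Sema3b -0.56, Epha10 -0.53 and Sema4g 0.54, which are not past 1.5-fold. By family, 3 of 6 class 4 semaphorins were higher and 0 were lower, whereas 3 of 8 plexins were lower and 0 were higher. Also lower were 2 of 2 netrins measured, 2 of 4 Unc5 receptors, 2 of 6 class 3 semaphorins, 2 of 8 EphA and 1 of 5 EphB receptors. The class 5 to 7 semaphorins had 2 higher and 1 lower of 7, and 1 of 5 ephrin-A genes was higher. The remaining families had none past 1.5-fold. Without the subtraction of the median, 4 of 63 members were higher and 18 were lower, beside 9.30% and 33.6% of all genes. With only cells of at least 1000 genes and at most 5% mitochondrial UMIs, 12 of 56 were higher and 10 were lower, beside 17.1% and 22.6% of all genes.

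**Figure D3:**
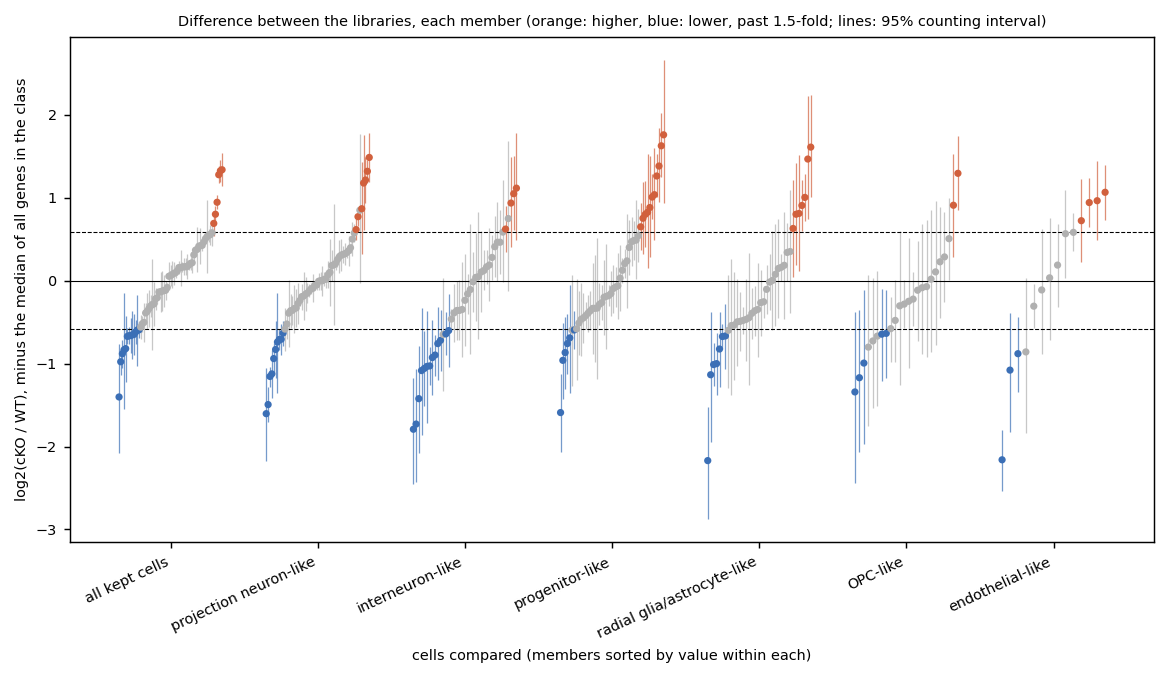
Centered log2 difference (cKO over WT, vertical axis) of each guidance gene measured in each group of cells compared, with 1 point per gene sorted by value, lines for 95% counting intervals, dashed lines at 1.5-fold and colors for genes past it. In all kept cells 6 points are colored as higher and 13 as lower, and the lowest points of radial glia/astrocyte-like and endothelial-like cells are both Nrp1.

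In projection neuron-like cells, 7 of 56 members were higher in cKO and 10 lower, 12.5% and 17.9%, beside 18.4% and 23.4% of all genes. The members' median was -0.03. Sema5b, which has thrombospondin repeats beside its sema domain, had 5.56 in WT and 13.7 in cKO, a difference of 1.49 (95% interval 1.19 to 1.79). Sema4c had 25.8 in WT and 56.6 in cKO, a difference of 1.32 (95% interval 1.18 to 1.46), and Sema4d, Ephb3 and Epha6 followed at 1.21, 1.18 and 0.87. The lowest were Epha10 at -1.60 (95% interval -2.18 to -1.06) and Ephb6 at -1.49 (95% interval -1.71 to -1.28). Unc5d had 77.7 in WT and 30.6 in cKO, a difference of -1.15 (95% interval -1.28 to -1.03), and Plxnc1 and Plxnb2 stood at -1.12 and -0.94. At clustering resolution 1, Epha6 stood at 0.16 and Unc5d at -0.98. With the stricter filter on cells Sema4d stood at 1.94, Sema5b at 1.85, Sema4c at 1.66, Unc5d at -0.76 and Ephb6 at -1.09. Without the subtraction 5 of 56 were higher and 12 lower, beside 11.7% and 30.3% of all genes, and with a minimum of 200 UMIs 4 of 50 were higher and 9 lower, beside 16.7% and 21.5%.

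In interneuron-like cells, 4 of 39 members were higher and 13 lower, 10.3% and 33.3%, beside 16.1% and 21.3% of all genes. The median of the members was -0.24. Sema5b, at 1.12 (95% interval 0.49 to 1.78), and Sema4c, at 1.05 (95% interval 0.61 to 1.51), were again higher, with Sema3a at 0.94 and Efnb2 at 0.62. Sema3a stood at 1.74 with each library clustered alone and at 0.45 with no filter on cells, and was past 1.5-fold under 11 of 13 alternatives. Efnb2 was past it under 9 of 15, between 0.41 and 1.18. Plxna3 had 28.4 in WT and 8.03 in cKO, a difference of -1.79 (95% interval -2.45 to -1.17). Plxna3 lies on the X chromosome, as do Efnb1 and Plxnb3, and the cKO library is the one with Xist. Efnb1 stood at 0.19 in these cells, Plxnb3 was below the UMI minimum, and the part of sex in the Plxna3 value was not tested. Sema3c had 24.6 in WT and 7.25 in cKO, a difference of -1.73 (95% interval -2.42 to -1.07), and Plxnb2, Plxnc1 and Nrp1 stood at -1.42, -1.08 and -1.06. The WT class held 210 MGE and 257 CGE interneuron-like cells and the cKO class 347 and 324. With the stricter filter on cells 3 of 10 members were higher and 3 lower, beside 14.4% and 16.1% of all genes.

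In progenitor-like cells, 11 of 46 members were higher and 6 lower, 23.9% and 13.0%, beside 15.8% and 20.1% of all genes, while the members' median was -0.13. Sema4d had 2.48 in WT and 8.29 in cKO, a difference of 1.76 (95% interval 0.93 to 2.66), and Sema4c had 11.8 in WT and 35.9 in cKO, a difference of 1.63 (95% interval 1.25 to 2.02). Sema4g, Sema5b and Sema6b followed at 1.38, 1.26 and 1.04. Efna5 had 24.3 in WT and 7.98 in cKO, a difference of -1.59 (95% interval -2.07 to -1.13), and Plxna3, Epha7, Plxnb1 and Plxna1 stood at -0.96, -0.87, -0.76 and -0.69. The share of cycling cells differed, with 292 cycling progenitor-like cells beside 397 intermediate progenitor-like cells in WT and 189 beside 440 in cKO, and its part in these values was not tested. When each cluster was weighted alike in both libraries 8 of 46 members were higher and 15 lower, beside 14.99% and 20.4% of all genes. With each library clustered alone 8 of 42 were higher and 10 lower, beside 15.4% and 19.4%, and at resolution 1 the counts were 7 and 8 of 40, beside 14.4% and 18.8%, where Plxna3 stood at -2.14. With no filter on cells Sema4g stood at 0.79, Sema6b at 0.48 and Plxna1 at -0.29. Of these, Plxna1 was past 1.5-fold under 6 of 13 alternatives and Sema6b under 10 of 13. Plxnb1 was past it under 14 of 15.

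In radial glia/astrocyte-like cells, 7 of 36 members were higher and 7 lower, 19.4% each, beside 13.6% and 18.0% of all genes, and the members' median was -0.31. Slit2 had 8.17 in WT and 23.9 in cKO, a difference of 1.61 (95% interval 1.01 to 2.24), followed by Sema4d at 1.47, Sema5b at 1.0, Ephb1 at 0.91 and Sema4g at 0.81. Nrp1 had 32.7 in WT and 6.94 in cKO, a difference of -2.17 (95% interval -2.88 to -1.52). Epha3, Sema6d, Plxnc1 and Plxna2 stood at -1.13, -1.01, -1.0 and -0.82. With called doublets kept, Nrp1 stood at -0.89 and Epha3 at -0.21, and with no filter on cells Nrp1 stood at -0.63. At resolution 1 Sema4g stood at 0.46, and with the stricter filter Plxna2 stood at -0.31, both short of 1.5-fold. With each library clustered alone 6 of 42 were higher and 11 lower, beside 13.7% and 18.5% of all genes, and with a minimum of 200 UMIs the counts were 2 and 5 of 17, beside 10.6% and 15.1%.

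In OPC-like cells, 2 of 24 members were higher and 5 lower, 8.33% and 20.8%, beside 13.2% and 17.5% of all genes, with a members' median of -0.27. Sema5b had 41.2 in WT and 101.0 in cKO, a difference of 1.29 (95% interval 0.85 to 1.75), and Sema6b a difference of 0.91. Plxnb1 had 27.1 in WT and 10.7 in cKO, a difference of -1.34 (95% interval -2.44 to -0.38), and Plxnb2, Efnb1, Unc5c and Plxna2 stood at -1.17, -0.99, -0.64 and -0.63. With a mean over the cells in place of summed UMIs, 1 of 24 was higher and 6 lower, beside 14.2% and 18.4% of all genes. Efnb1 was past 1.5-fold under 8 of 12 alternatives and stood at -0.47 with no filter on cells, Plxna2 under 7 of 14, Unc5c under 12 of 14 and Sema6b under 12 of 13.

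In endothelial-like cells, of which there were 110 and 55, 4 of 14 members were higher and 3 lower, 28.6% and 21.4%, beside 18.2% and 20.4% of all genes. The median of the 14 was 0.11. The endothelial markers summed to 7254 and 7056 CPM here, the 7 mural cell markers to 207 and 280, and the 6 red blood cell markers, none at 0, to 4086 and 15704, whose part in these values was not tested. Efna1 stood at 1.07 (95% interval 0.74 to 1.40), Sema7a, a glycolipid-anchored semaphorin, at 0.96 (95% interval 0.49 to 1.44) and Robo4 at 0.94 (95% interval 0.64 to 1.24), and Plxna2 followed at 0.72. For Robo4 the difference over all kept cells was -0.34, and the unnamed cluster led by Rgs5 and Vtn held 232 and 81 of its UMIs. Nrp1 was lower by more than any other member measured in this class, at -2.16 (95% interval -2.54 to -1.80). Unc5b, a netrin receptor of vessels, had 52.2 in WT and 23.9 in cKO, a difference of -1.08 (95% interval -1.83 to -0.39), and Sema6d a difference of -0.88. With each library clustered alone Sema6d stood at -0.39 and Unc5b at -0.58, and with a mean over the cells Plxna2 stood at 0.34, none of them past 1.5-fold. With that mean 4 of 14 members were higher and 5 lower, beside 19.8% and 22.5% of all genes.

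A set of 14 members, chosen after their values were seen, was set side by side over 14 of the 16 named classes. Ependymal-like and microglia-like cells were not compared, though some members reached the UMI minimum there. In ependymal-like cells Plxnb1 had 67.2 CPM in WT and 70.6 in cKO, and Plxnb2 had 177 in WT and 115 in cKO. Sema5b was past 1.5-fold higher in cKO in 10 of 10 compared classes where it reached the UMI minimum, between 0.83 and 2.02, and Sema4c in 10 of 11. In endothelial-like cells the Sema4c difference was 0.03. Sema4d was higher in 4 of 4, Sema6b in 5 of 11 and Sema4g in 4 of 12. In the other direction, Plxnb2 was lower in 9 of 11 classes, Plxna3 in 8 of 11, Plxnb1 in 7 of 9, Nrp1 in 7 of 11 and Unc5d in 6 of 8. Ephb2 was lower in 7 of 13, Epha7 in 7 of 10, Ephb6 in 5 of 7 and Plxnc1 in 4 of 7. Over the 61 members measured in any of these 14 classes, 19 were past the fold only as higher, 29 only as lower, 9 in both directions and 4 in neither. These are 31.1%, 47.5%, 14.8% and 6.56%. The same shares over 12449 genes were 30.5%, 42.6%, 6.17% and 20.8%, and they depend on how many classes a gene was measured in.

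**Figure D4:**
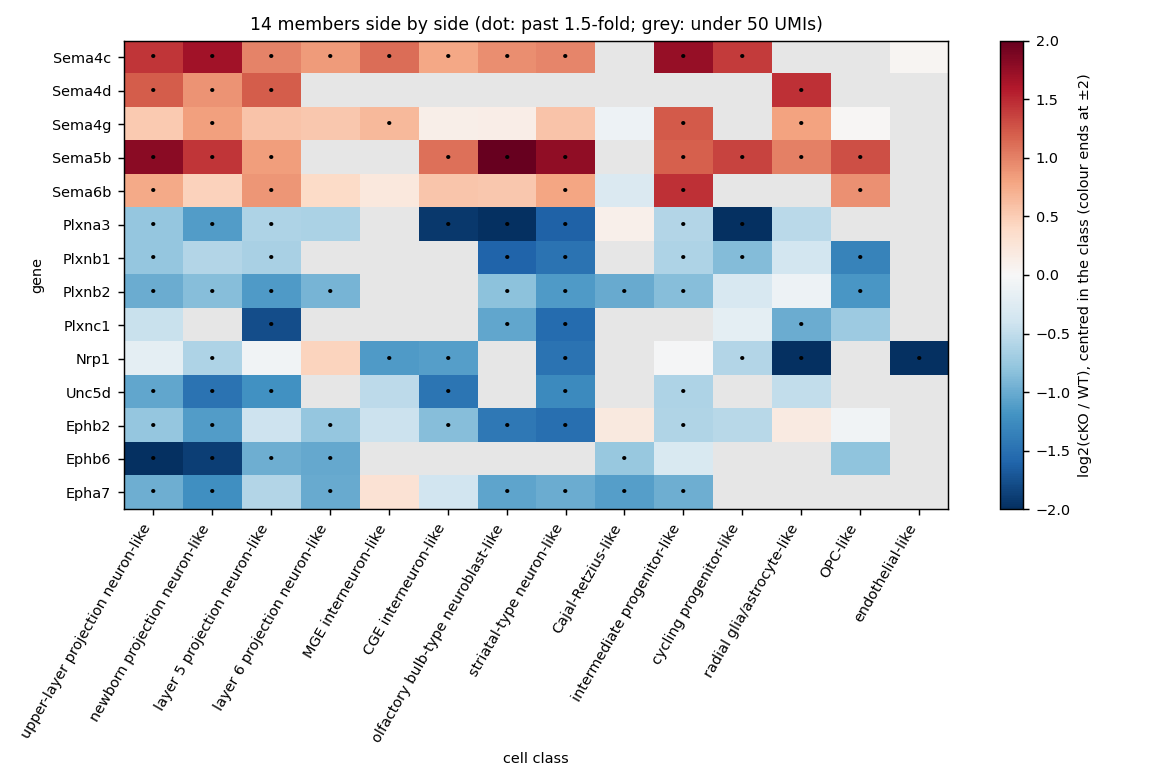
Centered log2 difference (cKO over WT) of 14 guidance genes, chosen after their values were seen, in each of the 14 classes compared where they reached 50 UMIs. Ependymal-like and microglia-like cells are not drawn. Sema5b and Sema4c are positive in every class drawn, and Plxnb2 is past 1.5-fold lower in 9 of 11.

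The other genes of the pathway, a list of co-receptors, intracellular effectors, kinases and further guidance cues, were read in the same way. In all kept cells 16 of 78 were higher and 5 lower, 20.5% and 6.41%, beside the 18.0% and 24.1% of all genes. Ntng2, a netrin-G, Rgmb, a repulsive guidance molecule that binds neogenin, and Dscaml1, an adhesion molecule, stood at 1.61, 1.19 and 1.04, with 26 and 66 UMIs behind Ntng2. Rras, a GTPase that plexins inactivate, had 24.8 in WT and 8.65 in cKO, a difference of -1.27 (95% interval -1.42 to -1.12), and Ntng1 and the kinase Pak2 stood at -0.76 and -0.72. By group, 10 of 24 further guidance ligands and receptors were higher and 1 was lower, 1 and 2 of 9 co-receptors, 1 and 0 of 8 CRMP-type and MICAL effectors, 2 and 1 of 19 GTPases and their regulators, and 2 and 1 of 18 kinases and adaptors. The median of the 78 was 0.33, above the 0.06 of the members.

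By class, 14 of 77 pathway genes were higher and 8 lower in projection neuron-like cells, 18.2% and 10.4% beside 18.4% and 23.4% of all genes. There Rgmb (1.46), Ntng2 (1.26) and the exchange factor Farp2 (1.05) led. Lower were Ngef, the exchange factor ephexin that acts behind EphA receptors (-0.91), Pak2 (-0.88) and the L1-type adhesion molecule Chl1 (-0.88). In interneuron-like cells the shares were 5.71% and 20%, beside 16.1% and 21.3%. Here 4 of 70 were higher, led by Tiam1 (0.90), Fyn (0.65) and Flrt3 (0.65), and 14 were lower, led by Ntng1 (-1.79), the netrin antagonist Draxin (-1.54) and Ablim1 (-1.33). In progenitor-like cells the shares were 20.8% and 9.72%, beside 15.8% and 20.1%. There 15 of 72 were higher, led by the Nogo receptor Rtn4r (1.89), Mical2 (1.55) and Dscaml1 (1.21), and 7 were lower, led by Cntn1 (-1.13), Chl1 (-1.06) and Rras (-1.02).

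In radial glia/astrocyte-like cells 10 of 66 pathway genes were higher and 6 lower, 15.2% and 9.09% beside 13.6% and 18.0% of all genes. Mical2, an actin-oxidizing enzyme related to the plexin effector Mical1, had 9.90 in WT and 63.4 in cKO, a difference of 2.74 (95% interval 2.25 to 3.27), and Rgmb and Dpysl4 followed at 1.78 and 1.12. Cntn1, Chl1 and the netrin-G ligand Lrrc4c stood at -1.37, -0.84 and -0.79. In OPC-like cells the shares were 11.5% and 3.28%, beside 13.2% and 17.5%. There 7 of 61 were higher, led by Lrrc4 (1.0), Dscaml1 (0.91) and Neo1 (0.86), and the 2 lower were Srgap2, a GTPase regulator behind Robo (-1.20), and Chl1 (-0.96). In endothelial-like cells the shares were 10.5% and 18.4%, beside 18.2% and 20.4%. There 4 of 38 were higher, led by Abl2 (1.51), Adgrl3 (1.24) and Kalrn (1.0), and 7 were lower, led by Cdk5 (-1.37), Dpysl2 (-0.82) and Srgap1 (-0.74). Chl1 was thus among the 3 lowest pathway genes in 4 of the 7 comparisons.

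The members also shared features that the symbol rule did not use. Their longest annotated transcripts had a median of 5095 bases, against 3358 for all genes measured, their GC content was 55.3% against 49.7%, and their genes spanned 107 kb against 23.9 kb. The ratios of all genes moved with transcript length. With all genes split into 5 equal bins by transcript length, 32.5% were lower in cKO and 13.7% higher in the bin of the shortest, and 15.8% and 22.2% in the bin of the longest. Of the 30 members in the longest bin, 8 were lower and 0 higher. The part of length and GC content in the members' values was not tested. Some members are neighbors in the genome. Robo4 and Robo3 lie 0.553 kb apart, Efna3 and Efna4 10.4 kb, Efna1 and Efna3 32.8 kb, and Sema3b and Sema3f 72.3 kb. Exons of 14 members, including Sema4c, Ephb4, Plxnb1 and Ephb1, share bases with a gene on the other strand. Where counting did not use strand, their UMIs may hold those of the partner. Exons of Sema4a, Plxnc1 and Nrp1 share bases with a gene on the same strand, which the use of strand would not separate. In that order these genes are Mir7011, Gm48718 and Mir1903. A further limit is that 7 members (Epha1, Epha6, Plxna2, Plxnc1, Sema3a, Sema3e and Sema4b) hold a stretch nearly identical to another gene, and reads from it may have been split or dropped.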

How the data were processed

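Single-cell RNA of P0 mouse telencephalic tissue was measured in 2 libraries, WT and STINGf/f;Nestin-Cre, 1 per group. The authors deposited raw UMI counts per gene and cell, which are not normalized. Per the file headers they were written by Cell Ranger 3.0.1, while the submitters' processing notes list Cell Ranger 2, STAR, Seurat and mm9. Whether counting used strand is not given in the sources used here. A deposited table of the authors' own comparison of the libraries was not used. The WT library held 69554624 UMIs and the cKO library 67448785.

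Cells with at least 500 genes and at most 10% mitochondrial UMIs were kept, and doublets called by Scrublet on log values (270 and 197) were removed. Genes were scaled within each library, because joint values gave 26 of 46 clusters with at least 90% of their cells from 1 library. Clustering (2000 variable genes, 30 principal components, 15 neighbours, Leiden resolution 2) left out the guidance and pathway genes. Clusters were named "X-like" after the marker list with the highest mean scaled level. At least 3 markers of that list had to be detected, each in at least 10% of cells. No other list could hold more markers among the 10 leading genes, and clusters of low depth needed a marker of their own there. UMIs were summed per class and library. Levels carry exact Poisson intervals, ratios exact conditional binomial intervals and shares exact binomial intervals (95%), all covering counting error only. A 0 allows up to 3 counts. Classes needed 20 cells in each library. The 14 single classes compared left out ependymal-like and microglia-like cells. The ratio script was tested on simulated data.

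Named with levels were the 3 members of each family with the most UMIs and those at least 3 times the next class with at least 30 UMIs. Named with ratios were up to 5 members, and 3 pathway genes, past 1.5-fold in each direction. Members, lists and rules were chosen with earlier results of these data known. Alternatives were other cell filters, resolutions, UMI minimums (20 and 200), folds, scalings (TMM from edgeR 4.0.16, plain ratios), doublets kept and the combined matrix. Gene positions came from GENCODE M21 on GRCm38 by identifier, and 68 of 70 entries were found. Reference sequences came from RefSeq. Analyses used Python 3.11.15, scanpy 1.11.5, scikit-learn 1.9.0, leidenalg 0.10.2, numpy 2.4.6, scipy 1.17.1 and R 4.3.3.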

Additional observations from a re-analysis of the deposited data

Results flagged for a closer look

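For 3 of 60 members the libraries differed in opposite directions among the 6 main classes compared (projection neuron-like, interneuron-like, progenitor-like, radial glia/astrocyte-like, OPC-like and endothelial-like), each past 1.5-fold with an interval that left out 0. The same held for 2.40% of 13062 genes, and among the 14 single classes for 9 of 61 members, beside 6.17% of all genes. The difference between classes was not tested, because there was 1 library per group.

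Plxna2, the plexin that was highest in newborn projection neuron-like cells, was higher in cKO endothelial-like cells, with a centered log2 difference of 0.72 from 44.9 in WT and 71.8 in cKO. It was lower in radial glia/astrocyte-like cells, at -0.82 from 34.7 in WT and 18.7 in cKO, and in OPC-like cells, at -0.63 from 65.0 in WT and 41.8 in cKO. The opposite directions also held for the CPM levels themselves. The endothelial-like difference was past the fold under 12 of 13 alternatives, between 0.34 and 0.87, the radial glia/astrocyte-like one under 12 of 15, between -0.93 and -0.31, and the OPC-like one under 7 of 14, between -0.68 and -0.40.

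Plxna4, a receptor of Sema3a and Sema6a, was higher in cKO progenitor-like cells, at 1.01 from 26.5 in WT and 52.6 in cKO. It was lower in interneuron-like cells, at -0.64 from 98.4 in WT and 61.6 in cKO. The progenitor-like difference was past the fold under 11 of 15 alternatives, between 0.10 and 1.10, and the interneuron-like one under 11 of 15, between -0.85 and -0.40.

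Efnb2, a ligand of Ephb4, was higher in cKO interneuron-like cells, at 0.62 from 59.6 in WT and 89.6 in cKO, and lower in radial glia/astrocyte-like cells, at -0.67 from 41.1 in WT and 24.8 in cKO. These differences were past the fold under 9 of 15 alternatives, between 0.41 and 1.18, and under 10 of 15, between -0.83 and -0.34.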

How the results depend on the processing

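No paired analysis was possible because there was 1 library per group, and no library could be left out for the same reason. Each count of members was recomputed under 12 to 16 alternatives. At 2-fold it fell to 4 of 63 in all kept cells, 8 of 56 in projection neuron-like and 9 of 39 in interneuron-like cells. It was 7 of 46 in progenitor-like, 7 of 36 in radial glia/astrocyte-like, 3 of 24 in OPC-like and 3 of 14 in endothelial-like cells. Of all genes, between 3.82% and 7.25% were higher at 2-fold in these comparisons and between 8.76% and 13.5% were lower. With a minimum of 200 UMIs the count of members was 5 in interneuron-like, 9 in progenitor-like, 7 in radial glia/astrocyte-like, 1 in OPC-like and 4 in endothelial-like cells. In that order, 13.2%, 14.2%, 10.6%, 9.45% and 16.6% of all genes were higher and 17.1%, 17.8%, 15.1%, 15.8% and 18.6% lower. The stricter filter on cells kept 1620 WT and 1317 cKO cells and gave no endothelial value because too few cells were left. With it the count of members was 26 in projection neuron-like, 6 in interneuron-like, 9 in progenitor-like and 2 in OPC-like cells. In that order, 22.4%, 14.4%, 13.7% and 11.6% of all genes were higher and 24.9%, 16.1%, 16.0% and 14.5% lower. With no filter on cells the count of members was 26 in interneuron-like and 11 in progenitor-like cells. In that order, 16.6% and 13.6% of all genes were higher and 21.9% and 18.2% lower. These counts join both directions, and the number of members measured differs between settings, so they show no gain or loss particular to the members. The other counts stayed within 1.5 times, and the number of members with the same highest group in both libraries lay between 34 and 47. Of 66 named pairs of a member and a class, 43 stayed past 1.5-fold under every alternative run for them, and 65 never changed sign. The exception was Epha2 in all kept cells, at 0.56 when clusters were weighted alike, and the cause was not tested. Of 881 alternative values of named members 830 moved by less than their counting interval, 50 moved further and 1 reversed. Members under 50 UMIs in a class entered only the counts with a minimum of 20 UMIs.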

Other observations

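In both libraries 13 guidance genes with at least 20 UMIs in each stood higher in a cluster that no marker list named than in any named class. The share of all genes that did so was not computed, so the number is not read as a trait of the guidance genes. Examples are given here. A cluster led by Igfbpl1, Gm26699 and Pcdh8 (122 WT and 240 cKO cells), whose median UMI count was 0.17 of that of its libraries, held Sema3c at 624 (95% interval 498 to 772) in WT and 330.2 (95% interval 274 to 394) in cKO, in CPM. In the same cluster Robo2 stood at 631 (95% interval 505 to 779.8) in WT and 327 (95% interval 272 to 391) in cKO and Nrp1 at 631 (95% interval 505 to 779.8) in WT and 502 (95% interval 433 to 579) in cKO. A cluster led by Tfap2d (113 and 125 cells) held Epha5 at 1169 (95% interval 1083 to 1260) in WT and 1093 (95% interval 1011 to 1181) in cKO, Efnb2 at 245 (95% interval 207 to 289) in WT and 178 (95% interval 146 to 215) in cKO and Slit2 at 58.3 (95% interval 40.4 to 81.4) in WT and 83.1 (95% interval 61.5 to 109.8) in cKO. Both clusters thus held Epha5 above every named class, at 991 (95% interval 831 to 1173) in WT and 907 (95% interval 813 to 1009) in cKO in the first. A cluster led by Rgs5 and Vtn (67 and 16 cells), genes of pericytes, held Sema6d at 269.9 (95% interval 248 to 293) in WT and 134 (95% interval 105 to 169) in cKO, and a further such cluster (22 and 26 cells) at 507 (95% interval 382 to 659.9) in WT and 246 (95% interval 179 to 329.8) in cKO. The former also had the endothelial genes Cldn5 and Kdr among its leading genes, so its level cannot be given to pericytes alone. The intervals overlapped that of the highest named class for Sema3c and Robo2 in cKO and for Slit2 in WT, and not for the other values given. In the last pair of clusters the Sema6d level of WT was the higher in both.

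The libraries also differed within single clusters of the named classes, in pairs of gene and cluster chosen after their values were seen. In the pair of striatal-type neuron-like clusters Nrp2 had 36.8 in WT and 5.21 in cKO, a difference of -2.80 (95% interval -4.08 to -1.73), and 95.04 in WT and 7.80 in cKO, a difference of -3.63 (95% interval -4.98 to -2.54). In the larger cluster of newborn projection neuron-like cells Efna5 had 39.9 in WT and 2.90 in cKO, a difference of -3.75 (95% interval -5.25 to -2.55), and Unc5d had 357 in WT and 122 in cKO, a difference of -1.52 (95% interval -1.74 to -1.30). In the main MGE interneuron-like cluster Epha4 had 175 in WT and 57.2 in cKO, a difference of -1.62 (95% interval -1.95 to -1.29). In the olfactory bulb-type neuroblast-like clusters Robo2 had 283 in WT and 75.5 in cKO, a difference of -1.94 (95% interval -2.28 to -1.61), and 112 in WT and 58.1 in cKO, a difference of -1.0 (95% interval -1.63 to -0.40). Nrp1 in the radial glia/astrocyte-like clusters had 52.5 in WT and 10.8 in cKO, a difference of -2.28 (95% interval -3.19 to -1.47), and 9.63 in WT and 4.46 in cKO, where the interval crossed 0. These pairs were lower in cKO, and other clusters held some of the same genes the other way. In layer 6-like cells Epha4 had 37.5 in WT and 76.1 in cKO, a difference of 1.10 (95% interval 0.66 to 1.55). In a layer 5-like cluster Efna5 had 42.6 in WT and 75.3 in cKO, a difference of 0.92 (95% interval 0.56 to 1.30), and in another Nrp2 had 112 in WT and 136 in cKO, a difference of 0.40 (95% interval 0.18 to 0.63). In an upper-layer-like cluster Nrp1 had 42.0 in WT and 58.8 in cKO, a difference of 0.61 (95% interval 0.32 to 0.89).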
